A study of Mus musculus with 6 samples.

Results

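The 8 genes described here encode ligands and receptors of antigen-presenting and other myeloid cells: Cd274, Pdcd1lg2, Cd80, Cd86, Pvr, Lgals9, Cd200r1 and Cd40. The ligands restrain or help T cells, while the receptors CD40 and CD200R1 act on the cell that carries them. The genes were chosen by name, as 8 of the 32286 genes counted in each library. Their unique molecular identifiers (UMIs, one per captured transcript) were summed over monocytes, macrophages, dendritic cells, neutrophils and B cells. These classes held 7795 of the 20494 cell barcodes that passed filters (at least 500 genes, at least 1000 gene UMIs and at most 10% mitochondrial UMIs). Each class is named after the marker UMIs that gate it, so that "macrophage" stands for a cell with at least 4 UMIs of C1qa, C1qb and C1qc. T cells and natural killer (NK) cells, gated in the same way, stand beside them for comparison.

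The series profiled immune cells of mouse livers by droplet 3′ RNA sequencing with antibody tags, 30 days after infection. The mock group was mock-infected and is called native liver in its sample title, while the series design speaks of tumor-bearing livers for every group. The AAV-sgSCR group received an adeno-associated virus with a guide RNA labelled SCR, which the sample title calls the control. The AAV-sgBaat group received a virus with a guide RNA against Baat, whose product, an enzyme of hepatocytes, links bile acids with an amino acid. Since 1 library, a pool of 3 tumor samples, stands for each group, no group has a replicate check and no test between groups was possible. The intervals below are exact 95% intervals that cover counting error only. The mouse strain, the promoter of the guide, the nuclease and the origin of the tumors are not given in the sources used here. T cells (CD45hi CD3+) and the remaining CD45hi cells were sorted from digested whole liver, so the mix of classes in a library also depends on the sort.

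T cells need a signal through CD28 beside the antigen receptor, and CD80 and CD86 on antigen-presenting cells give it, while the same ligands bound by CTLA-4 restrain the response. PD-L1 (Cd274) and PD-L2 (Pdcd1lg2) bind the inhibitory receptor PD-1, PVR (CD155) binds inhibitory TIGIT and activating CD226, and galectin-9 (Lgals9) is a ligand of TIM-3. CD40 is the receptor through which helper T cells license dendritic cells and B cells, and CD200R1 is an inhibitory receptor of myeloid cells. The liver is known as a tolerant organ in which several of these ligands are carried by resident myeloid cells.

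Promoter windows of 4 of the 8 genes are shown, since the promoter set used here held windows for these 4 only. Each holds 300 bases of the gene's strand, 5′ to 3′. All are from RefSeq on GRCm38.p6 (the same assembly family as the mm10 build of the counts). For Pdcd1lg2 and Lgals9 they run from 250 bases before to 50 bases after the annotated gene start. The windows of Cd274 and Cd80 lie inside the annotated genes, which start at 29362107 and 38457430, and do not cover those starts. Capitals mark letters that match, on either strand, an NF-kB pattern (GGG, then 5 free bases, then CC), an interferon response pattern (GAAA, then 2 free bases, then GAAA) or a PU.1 pattern (GAGGAA).
Cd274: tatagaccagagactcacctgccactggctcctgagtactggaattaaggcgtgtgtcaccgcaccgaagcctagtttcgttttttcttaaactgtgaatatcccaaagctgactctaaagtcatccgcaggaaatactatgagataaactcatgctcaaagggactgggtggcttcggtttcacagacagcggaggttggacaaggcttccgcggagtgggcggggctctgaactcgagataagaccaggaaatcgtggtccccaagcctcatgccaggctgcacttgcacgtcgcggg
Pdcd1lg2: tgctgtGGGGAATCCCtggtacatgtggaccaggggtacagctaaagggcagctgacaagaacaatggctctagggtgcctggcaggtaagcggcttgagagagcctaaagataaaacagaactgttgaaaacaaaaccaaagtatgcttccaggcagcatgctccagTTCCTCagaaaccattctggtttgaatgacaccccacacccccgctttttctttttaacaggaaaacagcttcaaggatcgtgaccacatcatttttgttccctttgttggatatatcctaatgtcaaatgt
Cd80: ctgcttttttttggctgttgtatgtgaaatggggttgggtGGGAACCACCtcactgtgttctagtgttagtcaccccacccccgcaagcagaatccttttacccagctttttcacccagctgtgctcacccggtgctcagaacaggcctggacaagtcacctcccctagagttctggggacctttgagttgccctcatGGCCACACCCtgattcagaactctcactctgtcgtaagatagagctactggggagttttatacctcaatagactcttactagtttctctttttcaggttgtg
Lgals9: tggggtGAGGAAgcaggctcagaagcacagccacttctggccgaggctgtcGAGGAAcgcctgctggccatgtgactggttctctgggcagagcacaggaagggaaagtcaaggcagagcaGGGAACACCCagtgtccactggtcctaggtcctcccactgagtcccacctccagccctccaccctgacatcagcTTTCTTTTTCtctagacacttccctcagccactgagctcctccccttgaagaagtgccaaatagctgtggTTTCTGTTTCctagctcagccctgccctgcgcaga
These windows lie at chr19:29367188-29367487 (plus strand, Cd274), chr19:29410669-29410968 (plus strand, Pdcd1lg2), chr16:38458683-38458982 (plus strand, Cd80) and chr11:78984875-78985174 (minus strand, Lgals9). Cd274 and Pdcd1lg2 are neighbours, with 22823 bases between their annotated ends. The interferon response pattern matched at 2 places in the Lgals9 window, both on the strand opposite to the printed one, and at none in the other 3. Of 32851 mouse promoter windows, 3.44% held it. The NF-kB pattern, which 50.8% of all windows held, matched 2 separate stretches in Cd80 and 1 stretch, read on both strands, in Lgals9 and in Pdcd1lg2. The Cd274 window, which does not cover the annotated gene start, held none of the 5 patterns searched. GAGGAA (28.3% of windows) matched 2 places in Lgals9 and 1 in Pdcd1lg2, and a STAT pattern, TTCNNNGAA (8.30%), and an EBF pattern, CCCNNGGG (13.7%), matched none of the 4. A match is a description of letters and not a binding site. The annotated genes of the other members lie on chromosome 16 (Cd86, 36568956 to 36666158, and Cd200r1, 44765736 to 44794977), chromosome 7 (Pvr, 19903578 to 19921143) and chromosome 2 (Cd40, 165055614 to 165071654).

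The libraries held 31256049 (mock), 61084903 (AAV-sgSCR) and 46301256 (AAV-sgBaat) gene UMIs in 6068, 7332 and 7094 passing barcodes, with medians of 4164, 5911 and 3811.5 UMIs. Mock was mostly B and T cells: it held 2 macrophages, 3 immature and 9 mature neutrophils and no migratory dendritic cell, so those classes were compared between AAV-sgSCR and AAV-sgBaat only. Barcodes that passed the panels of more than 1 lineage were left out and made up 5.90% of mock, 18.5% of AAV-sgSCR and 29.1% of AAV-sgBaat barcodes. Pairs of libraries shared 10 to 16 barcodes. Baat itself had 5, 15 and 1 UMIs in mock, AAV-sgSCR and AAV-sgBaat, too few in these immune cells to check the guide. Free RNA was present: the neutrophil gene S100a8 was at 1.21 CPM (UMIs per 1000000 gene UMIs of the class) in mock T cells, 158 CPM in AAV-sgSCR T cells and 114 CPM in AAV-sgBaat T cells.

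**Figure D1:**
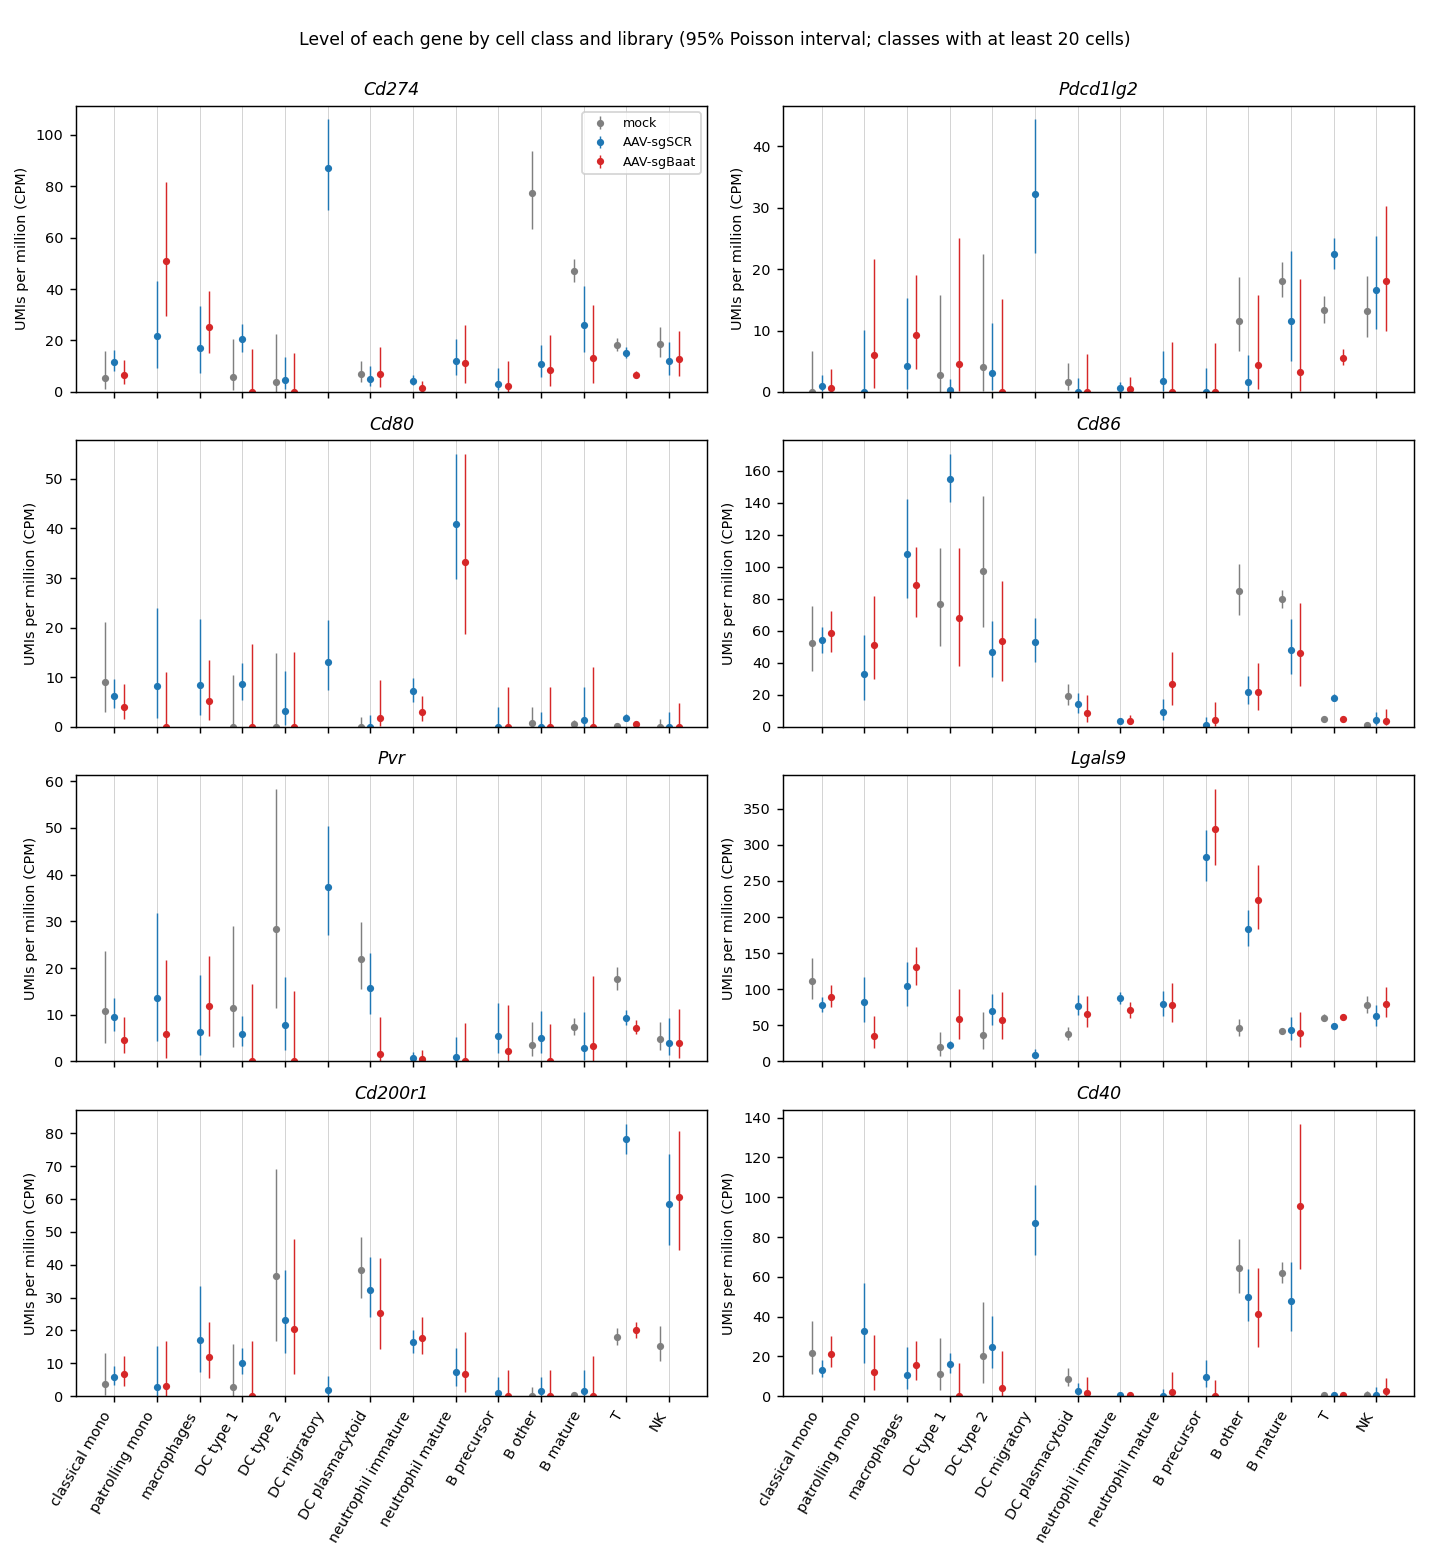
Level of each of the 8 genes, in CPM (linear axis from 0), by cell class for mock (grey), AAV-sgSCR (blue) and AAV-sgBaat (red); points are class sums and bars are exact 95% Poisson intervals, for classes with at least 20 cells. Cd80 was highest in mature neutrophils, Lgals9 in precursor B cells, and Cd274 and Cd40 in AAV-sgSCR migratory dendritic cells were at 87.1 CPM each.

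Cd274, which encodes PD-L1, marked a few cell classes in each library rather than myeloid cells at large. In AAV-sgSCR, migratory dendritic cells carried 100 Cd274 UMIs in 99 cells, or 87.1 CPM (70.8 to 106), and 50 of the 99 cells had at least 1 UMI. Patrolling monocytes of that library were at 21.8 CPM (9.41 to 42.9), macrophages at 17.0 (7.33 to 33.5) and classical monocytes at 11.8 (8.33 to 16.2), and the intervals of all 3 lie below that of migratory cells. Immature neutrophils were at 4.42 CPM (2.80 to 6.64) and mature neutrophils at 12.1 (6.45 to 20.7). T cells of AAV-sgSCR were at 15.2 CPM (13.3 to 17.4), inside the intervals of patrolling monocytes, macrophages, classical monocytes and mature neutrophils. The level in those 4 classes was therefore not distinguishable from that in T cells, which can express the gene themselves.

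In AAV-sgBaat, Cd274 was at 50.9 CPM (29.6 to 81.4) in patrolling monocytes, 25.1 (15.1 to 39.1) in macrophages, 11.1 (3.605 to 25.9) in mature neutrophils, 6.66 (3.19 to 12.3) in classical monocytes and 1.70 (0.462 to 4.34) in immature neutrophils. Here patrolling monocytes and macrophages lay above the T cells of the same library, at 6.52 CPM (5.25 to 8.0). The patrolling monocytes of the 2 virus libraries differed by 1.22 on the log2 scale (-0.07 to 2.64), an interval that spans 0. They are small classes of 61 and 88 cells, and 67.2% and 72.7% of their cells had under double the marker UMIs of the gate. With mixed-lineage barcodes kept the log2 ratio was -0.63 and after thinning to 2000 UMIs per cell it was -0.12, so the direction rests on how the class is cut.

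In mock, where B cells were the main antigen-presenting cells sampled, Cd274 was at 46.9 CPM (42.6 to 51.6) in mature B cells. It was at 26.1 CPM (15.5 to 41.3) in mature B cells of AAV-sgSCR and at 13.2 (3.59 to 33.7) in those of AAV-sgBaat. The mock interval lies above both others, while those of the 2 virus libraries overlap. Under double the marker UMIs of the gate were 28.2% of mature B cells in mock, 51.1% in AAV-sgSCR and 56.6% in AAV-sgBaat. The part of this in the Cd274 levels was not tested. The log2 ratio over mock was -0.84 (-1.61 to -0.17) for AAV-sgSCR and -1.83 (-3.72 to -0.47) for AAV-sgBaat, which share the mock library. Under a stricter barcode filter the Cd274 ratio was 0.0066 for AAV-sgSCR, so that difference rests on the filter, and -1.62 for AAV-sgBaat. The share of mature B cells with a Cd274 UMI was 14.0% in mock, 7.42% in AAV-sgSCR and 2.94% in AAV-sgBaat at median depths of 3477, 2793 and 2107 UMIs. After thinning every cell to 2000 UMIs the shares were 7.66%, 5.31% and 2.47%.

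Pdcd1lg2, which encodes the other PD-1 ligand and is known from activated dendritic cells and macrophages, was nearly silent in the myeloid classes. Migratory dendritic cells of AAV-sgSCR were the exception, with 37 UMIs or 32.2 CPM (22.7 to 44.4) and 17 of 99 cells with a UMI. Classical monocytes had 0, 3 and 1 UMIs in mock, AAV-sgSCR and AAV-sgBaat, immature neutrophils of the 2 virus libraries 3 and 1, and macrophages 2 and 7. T cells were at 13.3, 22.5 and 5.59 CPM, above every monocyte and neutrophil class with at least 50 cells in the same library except the AAV-sgBaat patrolling monocytes (5.98 CPM, from 2 UMIs). Macrophages lie outside that comparison, and those of AAV-sgBaat, from 7 UMIs, were above the T cells of their library. Mature B cells were at 18.1 CPM (15.5 to 21.1) in mock, 11.6 (5.02 to 22.9) in AAV-sgSCR and 3.29 (0.0833 to 18.3, from 1 UMI) in AAV-sgBaat.

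Cd80, which encodes a ligand of CD28 and CTLA-4, was highest in mature neutrophils among the classes with at least 20 cells in the virus libraries. Mature neutrophils, gated on S100a8, S100a9 and a second panel but with few granule-gene UMIs, were at 41.0 CPM (29.8 to 55.0) in AAV-sgSCR and 33.3 (18.6 to 54.9) in AAV-sgBaat. Immature neutrophils, with at least 20 UMIs of the secondary-granule genes Ltf, Camp and Ngp, were at 7.12 CPM (5.01 to 9.81) and 2.97 (1.19 to 6.12). The intervals of the 2 stages do not overlap in either library. The share of cells with a UMI was 12.3% against 5.15% in AAV-sgSCR and 9.09% against 1.35% in AAV-sgBaat, although mature cells were shallower, with median depths of 2878 against 6351 UMIs and 2345 against 4728. Thinned to 2000 UMIs, 9.27% and 8.42% of mature and 2.54% and 0% of immature cells had one. T cells, which should hold little Cd80, were at 0.186, 1.77 and 0.501 CPM in mock, AAV-sgSCR and AAV-sgBaat, and NK cells had no Cd80 UMI in any library.

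Over finer bins of granule-gene UMIs, Cd80 did not fall evenly in AAV-sgSCR. In AAV-sgSCR, Cd80 was at 28.4 CPM in neutrophils with no granule-gene UMI, 61.8 with 1 to 4, 21.7 with 5 to 19, 15.5 with 20 or more but under 200 and 5.04 with 200 or more. In AAV-sgBaat the same bins gave 63.5, 30.3, 19.2, 3.52 and 2.79 CPM, the first 3 from 7, 4 and 4 UMIs. In both libraries the intervals of the bins on either side of the 20-UMI gate overlap (8.72 to 44.7 and 8.89 to 25.2 CPM in AAV-sgSCR). The lowest level was in the bin richest in granule-gene UMIs in both libraries. Cd200r1 was not lowest in that bin in AAV-sgSCR, with 17.7, 4.26, 3.10, 20.4 and 15.3 CPM over the bins. The proliferation gene Mki67 was at 95.8, 46.9, 21.7, 0 and 188 CPM over the AAV-sgSCR bins and 36.3, 121, 158, 77.5 and 167 over those of AAV-sgBaat. Bins poor in granule-gene UMIs thus also held UMIs of a proliferation gene, so the bins are not a clean order of stages.

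**Figure D2:**
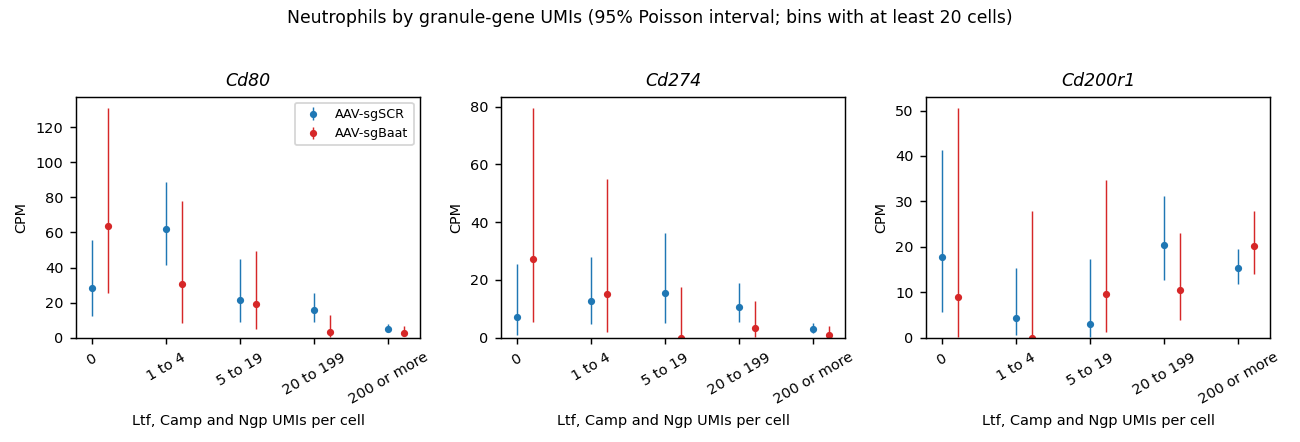
Cd80, Cd274 and Cd200r1 in neutrophils split by their UMIs of Ltf, Camp and Ngp per cell (x axis, 0 to 200 or more), in CPM on a linear axis from 0, for AAV-sgSCR (blue) and AAV-sgBaat (red), with exact 95% Poisson intervals. Cd80 was at 5.04 and 2.79 CPM in the last bin and higher in each other bin of the same library.

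Among other classes, each taken as a whole, Cd80 was lower. Dendritic cells of AAV-sgSCR held 23 UMIs in type 1 cells (8.54 CPM, 5.41 to 12.8) and 15 in migratory cells (13.1 CPM, 7.31 to 21.5). Of the 23 UMIs, 11 lay in the 17 type 1 cells with 5 or more UMIs of the migratory panel described below. Those cells were at 34.0 CPM (17.0 to 60.9), an interval that overlaps that of mature neutrophils in AAV-sgSCR. The other 155 type 1 cells were at 5.06 CPM (2.62 to 8.84). Classical monocytes were at 9.03, 6.20 and 3.997 CPM in mock, AAV-sgSCR and AAV-sgBaat. B cells had next to none: 5 UMIs over 2472 mature B cells of mock, 1 over 229 of AAV-sgSCR and 0 over 136 of AAV-sgBaat. Between the virus libraries, Cd80 in immature neutrophils had a log2 ratio of AAV-sgBaat over AAV-sgSCR of -1.26 (-2.67 to -0.08), from 7 and 37 UMIs.

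Cd86, the other CD28 ligand, was by contrast broad among antigen-presenting cells. Classical monocytes were at 52.4 CPM (35.1 to 75.2) in mock, 53.9 (46.2 to 62.6) in AAV-sgSCR and 58.6 (47.0 to 72.2) in AAV-sgBaat, with intervals that overlap throughout. Macrophages were at 108 CPM (80.6 to 142) in AAV-sgSCR and 88.4 (68.5 to 112) in AAV-sgBaat, and these intervals overlap too. Their log2 ratio was -0.29 (-0.84 to 0.26), although the resident Kupffer cell genes differed between the same cells: Cd5l was at 770 and 77.8 CPM, Vsig4 at 136 and 6.60 CPM, and Clec4f had 35 and 0 UMIs, in AAV-sgSCR and AAV-sgBaat. Timd4 and Marco, other resident macrophage genes, had no UMI in either, while C1qa was at 2591 and 2671 CPM. The macrophages of the 2 libraries were therefore not the same mixture, and the part of this in the levels of the 8 genes was not tested.

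Conventional dendritic cells had the highest Cd86 level of the AAV-sgSCR classes. They were at 85.1 CPM (63.3 to 112) in mock, 134 (122 to 147) in AAV-sgSCR and 60.1 (40.0 to 86.9) in AAV-sgBaat, from 43, 234 and 62 cells. The AAV-sgSCR level lies above both others, and the log2 ratio of AAV-sgBaat over AAV-sgSCR was -1.15 (-1.76 to -0.60). The classes differ in makeup: type 1 cells (Xcr1 or Clec9a) were 172 of 234 in AAV-sgSCR and 22 of 62 in AAV-sgBaat. Within type 1 cells Cd86 was at 155 CPM (140 to 170) in AAV-sgSCR, 67.7 (37.9 to 112) in AAV-sgBaat and 76.6 (50.5 to 111) in mock. Within type 2 cells it was at 46.4 (31.3 to 66.3), 53.3 (28.4 to 91.1) and 97.1 (62.2 to 145) in the same order. The intervals of the 2 virus libraries overlap in type 2 cells and not in type 1 cells, and the difference between the types was not tested.

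The share of conventional dendritic cells with a Cd86 UMI was 58.1% in mock, 69.2% in AAV-sgSCR and 30.6% in AAV-sgBaat, at median depths of 12801, 13335 and 6765 UMIs. Thinned to 2000 UMIs the shares were 16.7%, 25.2% and 11.9% (7 of 42, 59 of 234 and 7 of 59 cells), in the same order. T cells, which hold little Cd86, had a UMI in 2.28%, 8.78% and 2.59% of cells (0.878%, 3.63% and 1.10% thinned), and NK cells in 0.362%, 1.90% and 1.32%. The AAV-sgSCR T cells were thus also the highest of the T cells, at 17.9 CPM (15.8 to 20.2) against 4.75 and 4.58 in mock and AAV-sgBaat. Whether free RNA adds to this was not tested.

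In neutrophils Cd86 was low but differed the other way. Mature neutrophils were at 9.31 CPM (4.47 to 17.1) in AAV-sgSCR and 26.6 (13.8 to 46.5) in AAV-sgBaat, from 10 and 12 UMIs, a log2 ratio of 1.52 (0.18 to 2.89). The monocyte and neutrophil gene Lyz2 in the same cells was at 5292 and 6699 CPM and the macrophage gene C1qa at 6.52 and 19.98 CPM. With mixed-lineage barcodes kept the log2 ratio was -0.08, so the direction rests on leaving those barcodes out. Plasmacytoid dendritic cells were at 19.1, 13.9 and 8.48 CPM in mock, AAV-sgSCR and AAV-sgBaat, with intervals that overlap.

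**Figure D3:**
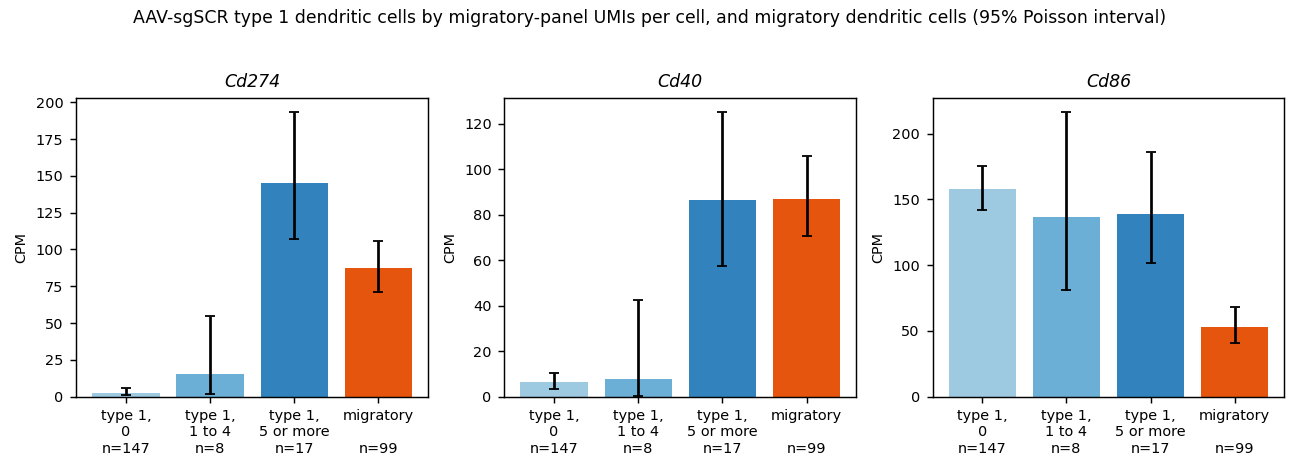
Cd274, Cd40 and Cd86 (CPM, linear axis from 0) in AAV-sgSCR type 1 dendritic cells split by their UMIs of Fscn1, Ccl22, Cacnb3, Nudt17 and Il4i1 (0, 1 to 4, 5 or more), and in migratory dendritic cells without type 1 markers (orange); bars are class sums with exact 95% Poisson intervals and n is the number of cells. Cd274 was at 145 and 87.1 CPM and Cd40 at 86.6 and 87.1 CPM in type 1 cells with 5 or more such UMIs and in migratory cells, and both were at most 15.2 CPM in the other bins, while Cd86 was at 137 to 158 CPM in all 3 type 1 bins and 53.1 CPM in migratory cells.

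In type 1 dendritic cells of AAV-sgSCR, Cd274 and Cd40 were higher in cells with the migratory program, the state in which dendritic cells carry antigen to lymph nodes and express the homing receptor Ccr7. In AAV-sgSCR, 17 of the 234 conventional dendritic cells, all of type 1, had 5 or more UMIs of the migratory panel. These 17 cells held 47 of the class's 58 Cd274 UMIs, at 145 CPM (107 to 193), and 28 of its 59 Cd40 UMIs, at 86.6 CPM (57.5 to 125). The other 217 cells were at 3.65 CPM (1.82 to 6.53) for Cd274 and 10.3 (6.98 to 14.6) for Cd40. Cd40 was also present without the panel: the 62 type 2 cells of AAV-sgSCR, all with under 5 such UMIs, were at 24.8 CPM (14.2 to 40.2), and in mock all 9 Cd40 UMIs lay in the 42 cells with under 5. The cut at 5 UMIs inside type 1 cells was made after the values were seen, and Ccr7 itself was at 90.7 CPM in conventional dendritic cells of AAV-sgSCR and had no UMI in those of mock or AAV-sgBaat.

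AAV-sgBaat had no conventional dendritic cell with 5 such UMIs among 62, and mock had 1 among 43. In AAV-sgBaat, conventional dendritic cells held 0 Cd274 UMIs, below the 6.44 CPM that 3 UMIs would give, which makes the AAV-sgSCR level of 17.4 CPM (13.2 to 22.5) at least 2.70-fold higher. Cd40 was at 15.01 CPM (6.87 to 28.5) in mock, 17.7 (13.4 to 22.8) in AAV-sgSCR and 2.15 (0.0544 to 11.97, from 1 UMI) in AAV-sgBaat, a log2 ratio over AAV-sgSCR of -3.04 (-8.37 to -0.51). Once the cells with 5 or more migratory-panel UMIs were left out, the AAV-sgSCR level of Cd274 (3.65 CPM) lay under the AAV-sgBaat limit of 6.44 CPM, so a difference was not detectable at this depth. For Cd40 the log2 ratio without them was -2.26 and for Cd86 it was -1.15, so the Cd86 difference was as large without the migratory cells.

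Migratory dendritic cells as a class numbered 99 in AAV-sgSCR, 7 in AAV-sgBaat and 0 in mock. In AAV-sgSCR they carried Cd40 at 87.1 CPM (70.8 to 106) in 53 of 99 cells, Pvr at 37.4 (27.1 to 50.4), Pdcd1lg2 at 32.2 (22.7 to 44.4), Cd80 at 13.1 (7.31 to 21.5) and little Lgals9, at 9.58 (4.78 to 17.1). The 7 cells of AAV-sgBaat held 6 Cd274, 14 Cd40 and 4 Cd80 UMIs and are too few to set a level. Cd274 and Cd40 were rarely seen in the same thinned cell: 3 of 99 cells had both, where the product of the 2 shares gives 2.58 cells. After thinning, 9.09% of migratory cells had UMIs of 2 or more of the 8 genes, beside 5.81% of type 1 cells of the same library.

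Pvr, the ligand of TIGIT and CD226, was highest in dendritic cells in mock and AAV-sgSCR, and not in AAV-sgBaat, where macrophages were at 11.9 CPM (5.43 to 22.5). Beside the migratory cells, plasmacytoid dendritic cells, the interferon-producing type, were at 21.9 CPM (15.6 to 29.8) in mock, 15.8 (10.2 to 23.3) in AAV-sgSCR and 1.70 (0.0429 to 9.45, from 1 UMI) in AAV-sgBaat. The AAV-sgBaat interval lies below the other 2, with log2 ratios of -3.22 (-8.58 to -0.61) over AAV-sgSCR and -3.69 (-9.03 to -1.13) over mock. Conventional dendritic cells showed the same order, at 18.4 CPM (9.16 to 32.8), 6.29 (3.89 to 9.61) and 0 UMIs in 62 cells, although 0 UMIs there allow up to 6.44 CPM. Classical monocytes were at 10.8, 9.61 and 4.66 CPM, and the log2 ratio of AAV-sgBaat over AAV-sgSCR was -1.04 (-2.47 to 0.17). T cells were also ordered in this way, at 17.6 CPM (15.2 to 20.3), 9.39 (7.89 to 11.1) and 7.23 (5.89 to 8.79). Neutrophils held at most 4 Pvr UMIs per stage and library.

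Lgals9, whose product galectin-9 is secreted or held at the surface, was detected in every class with at least 50 cells and was highest in B cell precursors. Precursor B cells, gated on Vpreb1, Igll1, Dntt and Rag1, were at 283 CPM (250 to 320) in AAV-sgSCR and 322 (272 to 378) in AAV-sgBaat, where 70.5% and 80% of cells had a UMI. Mature B cells, with Ighd and Fcer2a, were at 42.5 CPM (38.4 to 46.9) in mock, 43.6 (29.4 to 62.2) in AAV-sgSCR and 39.5 (20.4 to 69.0) in AAV-sgBaat. The 2 ends of the B lineage thus differed within each virus library, while mature B cells of the 3 libraries overlapped. T cells, at 60.5, 49.1 and 60.9 CPM, and NK cells, at 78.7, 62.6 and 80.1, express the gene and give no level of free RNA.

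B cells that met neither the mature nor the precursor gate were at 46.3 CPM (35.7 to 59.1) in mock, 184 (160 to 210) in AAV-sgSCR and 224 (183 to 272) in AAV-sgBaat. These cells were not the same in mock as in the virus libraries. Vpreb3, a precursor gene, was at 506, 3224 and 3356 CPM in them, the proliferation gene Mki67 at 1.45, 309 and 237, Rag1 at 2.17, 67.0 and 60.9, and the mature gene Ms4a1 at 1315, 461 and 450. In the same cells Cd274 was at 77.4 CPM (63.4 to 93.6), 10.8 (5.73 to 18.4) and 8.70 (2.37 to 22.3), and Cd86 at 84.7 (70.0 to 101), 21.5 (14.1 to 31.5) and 21.8 (10.4 to 40.0). Over mock, the log2 ratios for AAV-sgSCR were 1.99 for Lgals9, -2.85 for Cd274 and -1.98 for Cd86, and for AAV-sgBaat 2.27, -3.15 and -1.96. The part of the difference in makeup in these ratios was not tested.

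**Figure D4:**
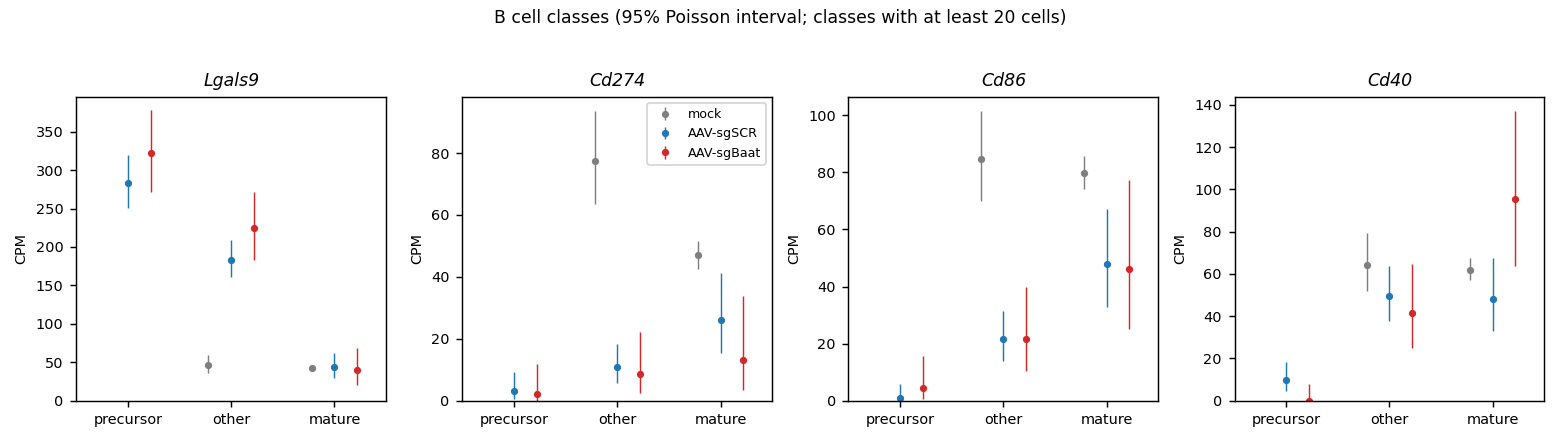
Lgals9, Cd274, Cd86 and Cd40 (CPM, linear axis from 0) in precursor, other and mature B cells of mock (grey), AAV-sgSCR (blue) and AAV-sgBaat (red), with exact 95% Poisson intervals. Lgals9 was highest in precursor cells (283 and 322 CPM), and Cd274 and Cd86 in mock cells of the other and mature gates.

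Among myeloid cells Lgals9 varied less. Classical monocytes were at 112 CPM (85.8 to 144) in mock, 78.4 (69.0 to 88.7) in AAV-sgSCR and 89.9 (75.4 to 106) in AAV-sgBaat. Macrophages were at 104 (76.9 to 137) and 131 (106 to 159), immature neutrophils at 88.1 (80.2 to 96.5) and 70.8 (60.5 to 82.4), and mature neutrophils at 79.1 (63.2 to 97.9) and 77.7 (54.1 to 108) in AAV-sgSCR and AAV-sgBaat. Intervals of neighbouring classes overlap in most of these comparisons. Patrolling monocytes were at 81.7 CPM (55.2 to 117) in AAV-sgSCR and 35.9 (18.6 to 62.7) in AAV-sgBaat, a log2 ratio of -1.19 (-2.29 to -0.18). Over 8 alternatives the ratio ran from -3.77 (thinned to 2000 UMIs) to -0.16 (mixed-lineage barcodes kept) and was past 2-fold in 5. The mixed-lineage barcodes of this class were at 55.3 and 59.1 CPM, and most cells of the class lie near its gate, as given above for Cd274.

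Conventional dendritic cells had a higher Lgals9 level in AAV-sgBaat than in AAV-sgSCR. They were at 26.7 CPM (15.3 to 43.3) in mock, 31.4 (25.7 to 38.1) in AAV-sgSCR and 58.0 (38.2 to 84.4) in AAV-sgBaat, with a log2 ratio of AAV-sgBaat over AAV-sgSCR of 0.88 (0.22 to 1.5). Here type 1 cells were at 22.3 and 58.7 CPM in AAV-sgSCR and AAV-sgBaat, and type 2 cells, at 69.7 and 57.4 CPM, were not higher in AAV-sgBaat. Plasmacytoid dendritic cells were at 38.2 CPM (29.8 to 48.3) in mock, 77.1 (64.0 to 92.1) in AAV-sgSCR and 66.1 (47.0 to 90.4) in AAV-sgBaat. The log2 ratio over mock was 1.01 (0.58 to 1.46) for AAV-sgSCR and 0.79 (0.19 to 1.38) for AAV-sgBaat, both against the 1 mock library.

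Cd200r1, the receptor for CD200, was highest among the described classes in plasmacytoid and type 2 dendritic cells. Plasmacytoid cells were at 38.2 CPM (29.8 to 48.3) in mock, 32.2 (24.0 to 42.4) in AAV-sgSCR and 25.4 (14.2 to 42.0) in AAV-sgBaat, and type 2 cells at 36.4 (16.7 to 69.1), 23.2 (12.99 to 38.3) and 20.5 (6.65 to 47.8). None of these libraries stands apart. Immature neutrophils were at 16.3 CPM (13.1 to 20.2) in AAV-sgSCR and 17.8 (12.8 to 24.1) in AAV-sgBaat, and mature neutrophils at 7.45 (3.22 to 14.7) and 6.66 (1.37 to 19.5), which is the opposite order to Cd80. Macrophages were at 17.0 and 11.9 CPM, classical monocytes at 3.61, 5.89 and 6.66, and B cells near 0, with 2 UMIs in 2472 mature B cells of mock.

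Lymphocytes carried Cd200r1 too, and in AAV-sgSCR they were above every described class. T cells were at 18.0 CPM (15.5 to 20.7) in mock, 78.2 (73.8 to 82.9) in AAV-sgSCR and 20.1 (17.8 to 22.6) in AAV-sgBaat, and NK cells at 15.4, 58.6 and 60.7 CPM. Reads of Cd200r1 and its close paralogs may be hard to tell apart, and how the counting resolved them is not given in the sources used here.

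Cd40 was a gene of B cells and migratory dendritic cells. Mature B cells were at 62.0 CPM (57.0 to 67.3) in mock, 47.9 (33.0 to 67.3) in AAV-sgSCR and 95.4 (63.9 to 137) in AAV-sgBaat. The log2 ratio of AAV-sgBaat over AAV-sgSCR was 0.99 (0.22 to 1.76), from 29 and 33 UMIs, and under a stricter barcode filter, with 8 UMIs left, it was -1.85. Other B cells were at 64.4, 49.6 and 41.3 CPM, with overlapping intervals, and precursor B cells at 9.66 (4.42 to 18.3) in AAV-sgSCR and 0 UMIs in 65 cells of AAV-sgBaat. Classical monocytes were at 21.7 CPM (11.2 to 37.9), 13.3 (9.64 to 18.0) and 21.3 (14.6 to 30.1) in mock, AAV-sgSCR and AAV-sgBaat, which do not differ beyond counting error. T cells, which should lack Cd40, were at 0.408 to 0.716 CPM, and both neutrophil stages held at most 2 UMIs per library. Plasmacytoid dendritic cells were at 8.74 CPM (4.996 to 14.2) in mock and 2.53 (0.689 to 6.47) in AAV-sgSCR, a log2 ratio of -1.79 (-3.83 to -0.16).

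**Figure D5:**
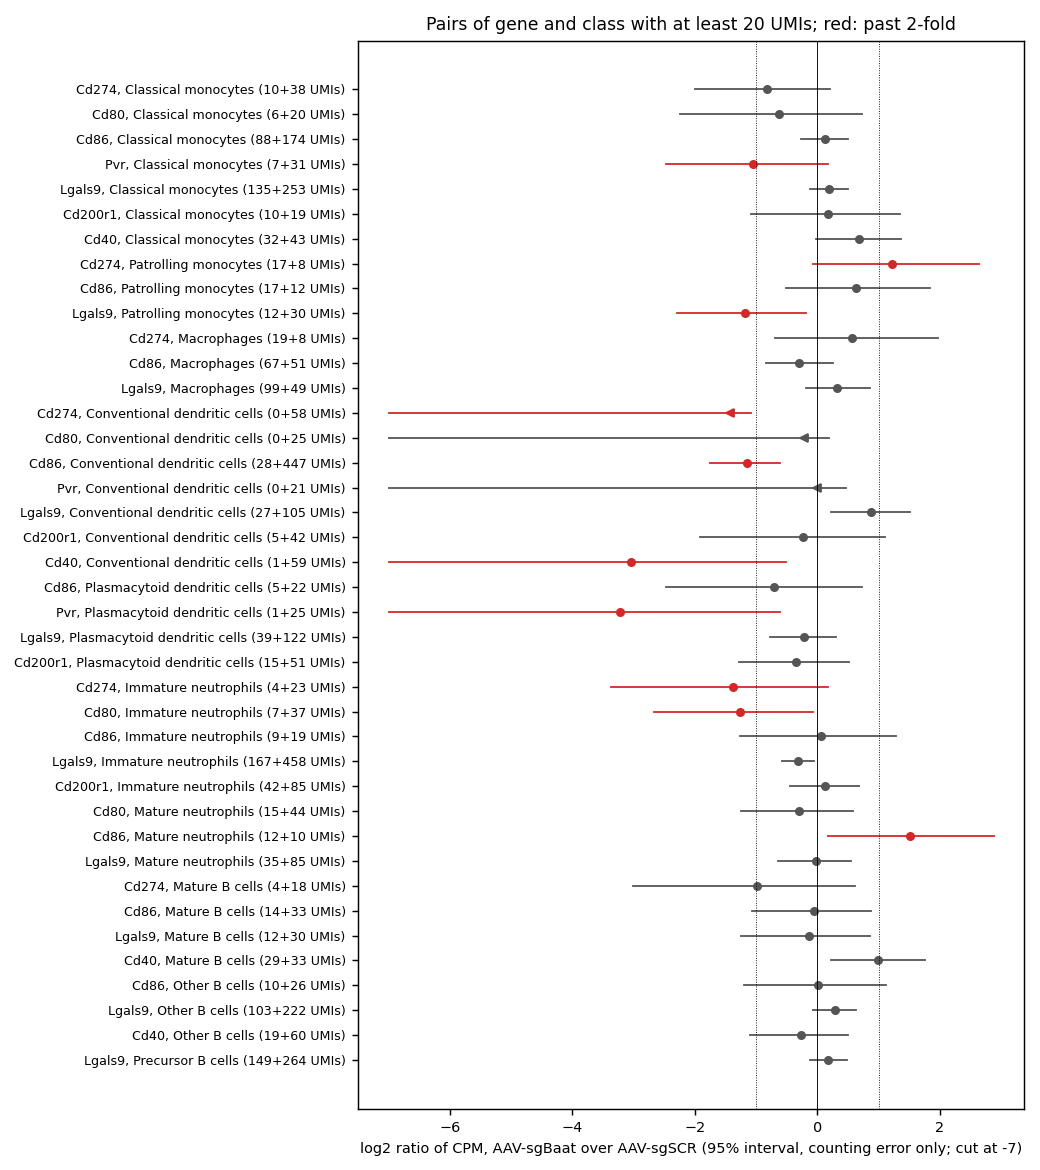
Log2 ratio of CPM, AAV-sgBaat over AAV-sgSCR, for each of the 40 pairs of gene and class with at least 20 UMIs over both libraries (UMIs of AAV-sgBaat and AAV-sgSCR in brackets), with exact conditional 95% intervals cut at -7; red marks pairs past 2-fold, dotted lines mark 2-fold, and arrowheads mark pairs with 0 UMIs in AAV-sgBaat, set at their bound. The 10 red pairs hold 8 below and 2 above 0, and 7 of their intervals leave out 0.

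Across the pairs of gene and class with at least 20 UMIs in the 2 libraries compared, in classes of at least 50 cells in both, 10 of 40 were past 2-fold for AAV-sgBaat over AAV-sgSCR. That is 25% of the pairs, where 8.44% of all gene and class pairs passed the same limit. Of these, 2 were higher in AAV-sgBaat, where the rate over all genes was 2.4%, and 8 were lower, where it was 6.04%. Low counts widen ratios: among pairs with 20 to 99 UMIs, 9 of 28 pairs of the 8 genes and 12.1% of all pairs were past 2-fold. The median log2 ratio was -0.18 over the 40 pairs and -0.06 over all pairs. The 2 higher were Cd274 in patrolling monocytes and Cd86 in mature neutrophils. The 8 lower were Cd274, Cd86 and Cd40 in conventional dendritic cells, Pvr in plasmacytoid dendritic cells and classical monocytes, Cd274 and Cd80 in immature neutrophils, and Lgals9 in patrolling monocytes. The 40 pairs share 10 classes, and so are not independent.

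The count of 10 depends on how the classes are drawn. It was 16 of 55 pairs with mixed-lineage barcodes kept, 3 of 30 with a stricter gate, 2 of 29 in classes from Leiden clusters and 2 of 17 after thinning to 2000 UMIs. The share over all genes was worked out in the main setting only. An excess of the 8 genes over all genes is therefore not shown in these other settings. Pairs in dendritic cells that were past 2-fold kept their direction in the alternatives that gave a value. Some dendritic pairs under 2-fold did not: Lgals9 in plasmacytoid cells kept its sign in 4 of 8 alternatives and Cd200r1 in conventional cells in 6 of 8. The log2 ratio of AAV-sgBaat over AAV-sgSCR ran from -1.45 to -0.82 over 9 alternatives for Cd86 in conventional cells (7 past 2-fold), from -3.93 to -1.82 over 7 for Cd40 there, and from -3.38 to -1.40 over 8 for Pvr in plasmacytoid cells. Alternatives in which 1 library had 0 UMIs and the bound gave no fold are not in these ranges.

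Fewer classes could be set against mock. For AAV-sgSCR over mock, 7 of 23 pairs were past 2-fold (30.4%), where 15.7% of all pairs were: 3 higher (8.34% of all pairs) and 4 lower (7.34%). Among pairs with 20 to 99 UMIs these were 3 of 10 and 23.3%, close to each other. For AAV-sgBaat over mock, 8 of 17 pairs were past 2-fold (47.1%; 17.5% of all pairs), 1 higher (6.7%) and 7 lower (10.8%), and with 20 to 99 UMIs 3 of 5 (21.9% of all pairs). Of the 7 and 8 pairs, 3 in each comparison were Lgals9, Cd274 and Cd86 in the other B cells, whose makeup differs from mock as given above. Under a stricter barcode filter the counts were 2 of 10 and 2 of 7 pairs, with no share over all genes worked out in that setting. Both comparisons share the mock library.

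The wider set of ligands, partners and regulators did not show one direction between the virus libraries. For AAV-sgBaat over AAV-sgSCR, 1 of 20 pairs of other B7 and CD28 family genes was past 2-fold higher and 2 lower (median log2 -0.11), 1 of 9 pairs of TNF family ligands higher and 0 lower (-0.20), and 3 of 59 pairs of nectins and adhesion ligands higher and 2 lower (-0.08). Inhibitory enzymes and cytokines had 4 of 49 pairs higher and 2 lower (-0.10), receptors of T and NK cells 1 of 10 higher and 3 lower (-0.20), and regulators of the ligands 4 of 187 higher and 13 lower (-0.18). These shares, 8.47% to 15% except for 40% of the 10 receptor pairs, stand beside 8.44% over all pairs.

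The largest ratios by list lay mostly in dendritic cells and macrophages. Arg1, the arginase of suppressive myeloid cells, had 1 UMI in AAV-sgSCR macrophages (2.12 CPM) and 86 in those of AAV-sgBaat (113 CPM), a log2 ratio of 5.74 (3.22 to 11.1), in the macrophages whose resident genes differed. In classical monocytes Arg1 had 0, 115 and 158 UMIs in mock, AAV-sgSCR and AAV-sgBaat, or 0, 35.6 and 105 CPM. Icosl, the ligand of ICOS, was at 41.3 CPM in conventional dendritic cells of AAV-sgSCR and 12.9 in those of AAV-sgBaat (-1.68, -3.15 to -0.52). In the same cells Traf1, a CD40 signalling adaptor, was at 99.7 and 30.1 CPM (-1.73, -2.62 to -0.96), Havcr2, which encodes TIM-3, at 110 and 43.0 CPM (-1.35, -2.08 to -0.70), and Cd200 at 21.9 and 4.30 CPM (-2.35, -5.42 to -0.44), all lower in AAV-sgBaat. Other genes of these lists were higher there. Cd226, a receptor of PVR, was at 5.69 CPM in AAV-sgSCR and 21.5 in AAV-sgBaat (1.92, 0.65 to 3.09), Tnfsf9, the 4-1BB ligand, at 8.38 and 21.5 (1.36, 0.15 to 2.44), and Sirpa, the receptor for CD47, at 23.4 and 55.9 (1.26, 0.56 to 1.91). The dendritic values from Icosl to Sirpa pool type 1 and type 2 cells, whose mix differed between the virus libraries as given above. Sirpa is itself on the list of type 2 markers. The part of the mix in these ratios was not tested. Socs3, an inhibitor of cytokine signalling, was at 244 and 75.2 CPM in macrophages (-1.70, -2.18 to -1.23).

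Against mock the regulators were lower more often than higher. In AAV-sgSCR, 0 of 84 pairs of regulators and classes were past 2-fold higher (8.34% of all pairs) and 21 lower (7.34%), with a median log2 ratio of -0.53 where all genes had -0.01, and in AAV-sgBaat 1 of 83 was higher (6.7% of all pairs) and 19 lower (10.8%), with -0.58 against -0.08. Relb, an NF-kB subunit of the non-canonical pathway, was at 29.0 CPM in plasmacytoid dendritic cells of mock, 5.69 in AAV-sgSCR and 5.09 in AAV-sgBaat. Ciita, the master regulator of class II antigen presentation, was at 171 CPM in other B cells of mock and 29.8 in those of AAV-sgSCR, the class with the different makeup.

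Over the 31 points of class and library with at least 50 cells, the genes whose log2 levels ran most like those of the 8 were named as a description, since points of 1 library share cells, depth and free RNA. Nfkb2 (r = 0.80) and Map3k14 (0.77), which encode the non-canonical NF-kB subunit and its kinase, came close to Cd274, and Mllt6 (0.80) and Il2rg (0.76) to Pdcd1lg2. Trpm2 (0.90), Rab7 (0.85) and Adam8 (0.83) ran closest to Cd80, Atl3 (0.81) to Pvr, Ppp1ca (0.81) to Lgals9, and Leprotl1 (0.88) to Cd200r1. Ciita was near both Cd86 (0.85) and Cd40 (0.87), and Cd83, an activation marker of dendritic and B cells, was near Cd40 (0.87). Among the 8 genes themselves, Cd274 and Pdcd1lg2 had r = 0.67 and Cd274 and Lgals9 r = -0.61.

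Co-detection within cells was counted only after thinning, which by itself makes joint detection rare, and not at full depth. After thinning to 2000 UMIs, 32 of 2415 mature B cells of mock had UMIs of both Cd86 and Lgals9, where the product of the shares gives 23.7, 31 had Cd86 and Cd40 (38.4) and 28 had Cd274 and Cd86 (24.9). In classical monocytes of AAV-sgSCR, 9 of 431 cells had Cd86 and Lgals9 (6.04). Cells with UMIs of 2 or more of the 8 genes made up 10.8% of AAV-sgBaat macrophages, 6.25% of AAV-sgSCR macrophages, 4.64% of AAV-sgSCR classical monocytes and 1.19% of AAV-sgSCR immature neutrophils.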

How the data were processed

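The values are raw counts of UMIs, 1 per gene and barcode, in matrices deposited as made by the authors with Cell Ranger on mm10, per the submitters' processing notes (version 6.0.1 per the file headers), with no normalization. The deposited barcode and feature lists hold names only. The 3 mRNA libraries were used, and the antibody tags were not. Barcodes with at least 500 genes, at least 1000 gene UMIs and at most 10% mitochondrial UMIs were kept. Classes came from UMI minimums on marker panels: 2 of Cd3d, Cd3e and Cd3g (T cells), 3 of B cell genes, 5 of plasmacytoid genes, 20 of S100a8 and S100a9 with 5 of a second neutrophil panel, 2 of Xcr1 and Clec9a or of 4 type 2 genes (conventional dendritic cells), 5 of 5 migratory genes, 4 of C1qa, C1qb and C1qc, 5 of 5 patrolling genes and 10 of 5 classical monocyte genes. Barcodes that passed panels of more than 1 lineage were left out. No doublet caller was used in the main setting.

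Counts were summed per library and class and scaled to CPM of the class's gene UMIs. A pair of gene and class was compared with at least 20 UMIs over both libraries and 50 cells in each, and 2-fold was the limit. Sums have exact Poisson, shares Clopper-Pearson and ratios conditional binomial intervals at 95%, and 3 counts stand for 0 where a bound is given. Thinning drew 2000 UMIs per cell and left out shallower cells. The genes named beside the 8 are up to 3 of each list with the largest ratio, and for likeness the 3 genes with the highest Pearson correlation of log2(CPM + 1) among genes with at least 100 UMIs, of which the text prints a part. The genes, lists and markers were chosen with earlier results of these data known, and the gate minimums were settled after seeing the data. Python 3.11.15 with numpy 2.4.6, scipy 1.17.1, pandas 2.3.3, scanpy 1.11.5 and matplotlib 3.10.9 was used. The log2 ratios and their intervals were tested on simulated Poisson counts, which hold counting error only, and the thinning was checked on mock cells.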

Additional observations from a re-analysis of the deposited data

Results flagged for a closer look

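Cd86 pointed in opposite directions in a pair of myeloid classes. For AAV-sgBaat over AAV-sgSCR its log2 ratio was -1.15 in conventional dendritic cells (28 and 447 UMIs) and 1.52 in mature neutrophils (12 and 10 UMIs), and neither interval holds 0. The difference between the 2 classes was not tested, since each group is 1 library. With mixed-lineage barcodes kept, the value in mature neutrophils was -0.08.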

How the results depend on the processing

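No paired analysis was possible because each group is 1 library, and for the same reason no replicate could be left out. The count of pairs past 2-fold for AAV-sgBaat over AAV-sgSCR was 10, and it was 16 with mixed-lineage barcodes kept, 3 with a stricter gate (double the marker UMIs), 2 in classes from Leiden clusters and 2 after thinning to 2000 UMIs, which leave 55, 30, 29 and 17 pairs. For AAV-sgSCR over mock it went from 7 to 2, and for AAV-sgBaat over mock from 8 to 2, under a stricter barcode filter (10 and 7 pairs left). No share over all genes was worked out in the alternative settings. The other alternatives kept these counts between 9 and 11, 5 and 10, and 6 and 12, among them Scrublet scores, another scaling, a minimum of 10 UMIs and, both added after seeing the data, type 1 dendritic cells alone and migratory-panel cells left out.

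Among pairs past 2-fold, the direction turned in 6 cases. The log2 ratio of Cd274 in patrolling monocytes, AAV-sgBaat over AAV-sgSCR, was -0.63 with mixed-lineage barcodes kept and -0.12 after thinning, and that of Cd86 in mature neutrophils was -0.076 with mixed-lineage barcodes kept. Pvr in mature B cells was 0.0081 (stricter gate) and 0.83 (stricter barcode filter) for AAV-sgBaat over mock and 0.87 (stricter barcode filter) for AAV-sgSCR over mock. Pairs under 2-fold turned too, such as Cd40 in mature B cells, AAV-sgBaat over AAV-sgSCR (0.99, and -1.85 under the stricter barcode filter), Cd274 in macrophages (0.56, lowest -0.34) and Cd86 in immature neutrophils (5 of 8 alternatives kept the sign). The cause was not tested. Of the single log2 ratios, 79 of 79 stayed within their interval with the highest Scrublet scores removed, 71 of 75 in Leiden classes, 62 of 78 under the stricter barcode filter and 64 of 74 after thinning. Depth limits the sparse genes: 3 UMIs amount to 6.44 CPM in conventional dendritic cells of AAV-sgBaat.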

Other observations

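Barcodes left out as mixed-lineage carried the same genes. Those that met the macrophage panel together with another lineage's numbered 266 in AAV-sgSCR and 622 in AAV-sgBaat, beside 75 and 186 macrophages kept. Their Cd86 level was 51.4 CPM in AAV-sgSCR and 30.4 CPM in AAV-sgBaat, and their Cd274 level 21.5 and 15.8 CPM. Mixed barcodes that met the conventional dendritic cell panels numbered 84 and 52, with Cd86 at 85.8 and 32.0 CPM and Cd274 at 21.3 and 10.2 CPM. These barcodes are deeper than the kept cells, with medians of 14257 and 10214 UMIs for the macrophage panel.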
